A study of Homo sapiens with 6 samples.

Results

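The numbered ZNF genes make up a large part of the human C2H2 zinc finger genes, which encode DNA-binding and other nuclear proteins. In the deposited table of 63086 human genes, 476 protein-coding genes have a symbol made of ZNF and a number. The 100 analysed here had 1000 or more counts summed over all 6 libraries, after ZNF598, a sensor of collided ribosomes, was left out. The genes were thus chosen by their summed counts, that is by their level, and the sum did not use the difference between the groups. All 100 passed the filter on low counts and were tested.

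The libraries were made from HEK293T cells, a human embryonic kidney line that carries the SV40 large T antigen. The 100Q group comprised 3 libraries of cells given queuine for 24 hours, at 100 nM by the characteristics and the design text but at 1 µM by the treatment protocol. The 0Q group comprised 3 libraries of the same queuine-depleted cells without added queuine, and both groups descend from cells kept in medium with dialyzed serum. The labels call them triplicates without saying whether they were separate cultures, so a p-value here measures the spread between these libraries, which may be technical. The comparison asks which transcripts differ when cells that lacked queuine receive it. The libraries held 5219707, 4023956 and 11398835 counts in 100Q and 7264638, 8035251 and 7604515 counts in 0Q. On the first principal component, with 30.9% of the variance, 100Q replicate 2, the shallowest library, stood apart from the other 5, and 100Q replicate 1 stood apart on the second (22.7%). All 10 markers expected in HEK293T averaged at least 1 CPM (counts scaled to library size), as did 2 of 8 markers of other cell types. These were HBA1, with means of 2.40 CPM in 100Q and 3.39 CPM in 0Q, and CD14, with 1.59 and 0.43 CPM. CD14 was highest in 100Q replicate 2, at 4.27 CPM. The 8 markers summed to 3.27 to 4.89 CPM in 100Q and 3.02 to 6.34 CPM in 0Q, with PTPRC, CD3E and CDH5 at 0 in every library.

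Queuine is a base that mammals take from diet and gut microbes. The enzyme of QTRT1 and QTRT2 inserts it at the wobble position of the tRNAs for histidine, tyrosine, asparagine and aspartate, where it forms queuosine. These tRNAs read codons ending in C and in U, which are CAC and CAT for histidine in the DNA. A C2H2 finger folds around a zinc ion held by a pair of cysteines and a pair of histidines, and arrays of such fingers bind DNA. Many of these genes also encode a KRAB domain, which recruits the corepressor TRIM28 and, through it, the histone methyltransferase SETDB1. In bulk RNA, fewer cells expressing a gene and less of its RNA per cell cannot be told apart.

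One finger each of 6 genes is printed, each with the linker codons that follow it, to show where the histidine codons lie. ZNF316, ZNF337, ZNF678 and ZNF721 had the 4 smallest p-values, ZNF664 had the highest histidine share, and ZNF444 had CAC as its only histidine codon. Each sequence has 84 bases (28 codons), read from the GENCODE 44 coding sequence on hg38 5′ to 3′ on the coding strand, and its first 63 bases are the finger from its first cysteine to its last histidine. Capitals mark histidine codons.
ZNF316: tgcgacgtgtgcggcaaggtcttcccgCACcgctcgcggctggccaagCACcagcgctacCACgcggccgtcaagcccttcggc
ZNF337: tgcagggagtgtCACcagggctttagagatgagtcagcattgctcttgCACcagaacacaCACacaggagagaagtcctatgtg
ZNF678: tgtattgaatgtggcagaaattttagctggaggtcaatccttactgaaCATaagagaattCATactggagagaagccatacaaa
ZNF721: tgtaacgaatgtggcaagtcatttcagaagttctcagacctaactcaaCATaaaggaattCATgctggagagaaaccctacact
ZNF664: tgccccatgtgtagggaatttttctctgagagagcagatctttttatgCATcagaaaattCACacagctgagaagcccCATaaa
ZNF444: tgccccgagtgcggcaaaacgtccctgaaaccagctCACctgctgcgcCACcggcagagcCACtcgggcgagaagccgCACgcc
The ZNF316 finger lies at chr7:6652635-6652718 on the plus strand and the ZNF337 finger at chr20:25676577-25676660 on the minus strand, and each stretch has 3 CAC and 0 CAT codons. The ZNF678 finger lies at chr1:227654545-227654628 on the plus strand and the ZNF721 finger at chr4:444053-444136 on the minus strand, and each stretch has 0 CAC and 2 CAT codons. The ZNF664 stretch, at chr12:124012157-124012240 on the plus strand, has 1 CAC and 2 CAT codons. The ZNF444 stretch, at chr19:56159758-56159841 on the plus strand, has 4 CAC and 0 CAT codons.

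Most of the set was rich in histidine against the tested genes. Histidine made up a median of 5.13% of the codons in the 100 genes (interquartile range 3.89 to 6.20%), against 2.44% in the 12819 tested protein-coding genes. The share was above that median in 96 of the 100 and above the tested genes' 90th percentile of 4.02% in 71. It was highest in ZNF664, at 9.20%, in ZNF146, which consists of little but fingers, at 8.90%, and in ZNF322, at 7.96%. The 4 genes below the tested median were ZNF207 (2.43%), ZNF318 (2.41%), ZNF609 (1.91%) and ZNF638 (1.87%), which have 2, 2, 1 and 2 fingers in that order. The pattern of a C2H2 finger, with 2 to 4 residues between the cysteines, 12 before the first histidine and 3 to 5 between the histidines, was found 822 times in all. A gene had a median of 8 fingers, 33 genes had 10 or more, and ZNF142 had the most with 36. ZNF330, ZNF503 and ZNF703 had none by this pattern.

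**Figure D1:**
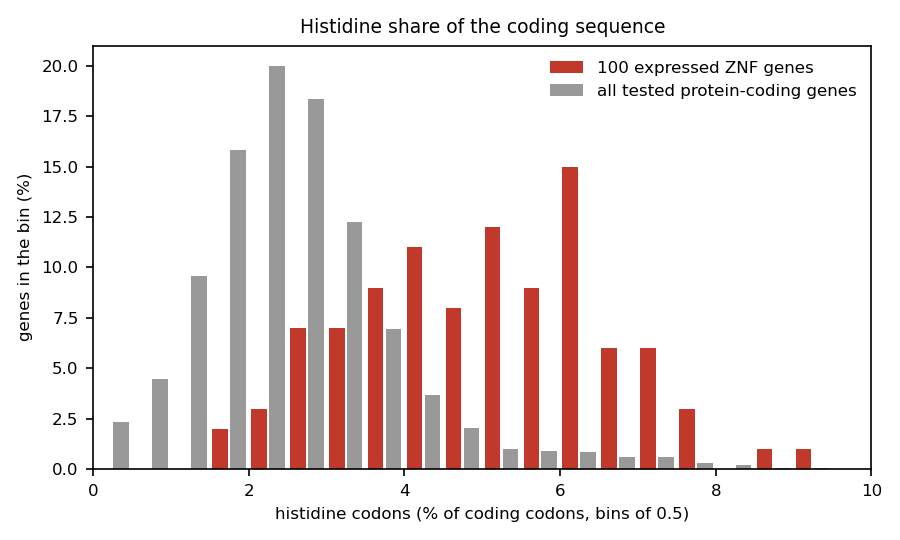
Share of genes (y axis, percent of each set) in bins of the histidine share of the coding sequence (x axis, percent of codons, bins of 0.5), for the 100 expressed ZNF genes and for the 12819 tested protein-coding genes, of which 3 lie beyond the last bin. The ZNF genes centre on a median of 5.13%, against 2.44% for the tested genes, and 71 of the 100 lie above 4.02%.

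The abundance of histidine did not extend to the other residues that queuosine tRNAs read. The median shares of the ZNF genes against the tested genes were 2.45% against 2.62% for tyrosine, 2.70% against 3.42% for asparagine and 3.69% against 4.80% for aspartate. The 4 residues together came to a median of 13.99% of codons in the ZNF genes and 13.8% in the tested genes, and 52 of the 100 lay above the tested median. Codon choice was also close to that of the tested genes: CAC made up a median of 61.1% of histidine codons in the ZNF genes and 60.0% in the tested genes. Within the set it ranged widely, between 11.8% in ZNF678 and 100% in ZNF444. The 100 coding sequences held 1984 CAC and 1301 CAT codons, and CAC outnumbered CAT in 65 genes, CAT outnumbered CAC in 31 and the counts were equal in 4.

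The ZNF genes were expressed at low to moderate levels. Their mean over the 6 libraries had a median of 41.9 CPM, 60 of the 100 averaged under 50 CPM and 10 averaged at least 100 CPM. ZNF703, a transcriptional cofactor amplified in luminal breast cancers, was the highest, at 366, 402 and 399 CPM in 100Q and 386, 353 and 377 CPM in 0Q. ZNF24, a SCAN-domain factor, had 239, 233 and 262 CPM in 100Q and 244, 259 and 269 CPM in 0Q. ZNF664 had 228, 246 and 245 CPM in 100Q and 259, 239 and 246 CPM in 0Q. In all of these the groups overlapped. ZNF503, the paralog of ZNF703, had 211, 230 and 232 CPM in 100Q and 240, 219 and 232 CPM in 0Q, and ZNF207, which binds microtubules and the checkpoint protein BUB3 at the spindle, had 184, 214 and 221 CPM in 100Q and 197, 188 and 215 CPM in 0Q. Per kilobase of transcript the means were 115 CPM for ZNF703, 70.9 for ZNF503, 56.5 for ZNF664, 40.1 for ZNF24 and 14.8 for ZNF207. At the threshold, ZNF791, ZNF449 and ZNF212 lay just inside with 1005, 1023 and 1028 summed counts, and ZNF672, ZNF263 and ZNF764 lay just outside with 997, 987 and 983.

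The 100 genes together took a similar share of the counts with and without queuine. They held 0.579%, 0.579% and 0.618% of the counts in 100Q (0.592 ± 0.0227%, SD, n = 3) and 0.589%, 0.577% and 0.602% in 0Q (0.590 ± 0.0125%, SD, n = 3). The difference between the group means was smaller than either SD. Without the mitochondrial genes in the total, the ratio of the mean shares was 1.01 (100Q over 0Q), and without the 5 highest ZNF genes it was 1.00.

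No ZNF gene passed the test between 100Q and 0Q. With edgeR's quasi-likelihood test and an adjusted p under 0.05, 0 of the 100 were called, against 2 of all 14905 genes tested (0.0134%). An unadjusted p under 0.05 was found for 4 of the 100, 2 higher (background 2.49%) and 2 lower in 100Q (background 2.23%), against 704 of all genes (4.72%) and 4.97% of the 8070 genes with 1000 or more counts. DESeq2 called 0 of the 100 (background 0.0782% of 17908 genes) and gave 5 an unadjusted p under 0.05 (background 3.84% of 28982 genes). It was run without edgeR's filter on low counts, so its backgrounds cover other genes than those of edgeR. limma-voom called 0 (background 0.00671%) and gave 3 an unadjusted p under 0.05 (background 5.4%). With the trend with GC content and transcript length removed, edgeR called 0 and gave 7 an unadjusted p under 0.05 (background 5.41%). The libraries of the groups did not overlap for 8 of the 100, against 10.6% of all genes, with 4 higher in 100Q (background 5.39%) and 4 lower (background 5.2%). Each share of the ZNF genes in edgeR without the GC correction lay near its background. Below 0 lay 54 of the 100 log2 fold changes, against 50.6% of all genes, and their median was -0.01 (interquartile range -0.11 to 0.08), against a median of -0.0027 over all genes.

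The intervals show how large a change these libraries could have hidden. The 95% interval of the fold change lay inside a 1.5-fold change in either direction for 95 of the 100 genes, against 58.2% of all genes and 93.9% of those with 1000 or more counts. It lay inside a 2-fold change for all 100, against 75.9% of all genes. The 5 whose interval crossed 1.5-fold were ZNF316, ZNF337, ZNF678, ZNF721 and ZNF70. The median standard error of a log2 fold change was 0.13 in the set, and the median gene had between 171 and 505 counts in a library.

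**Figure D2:**
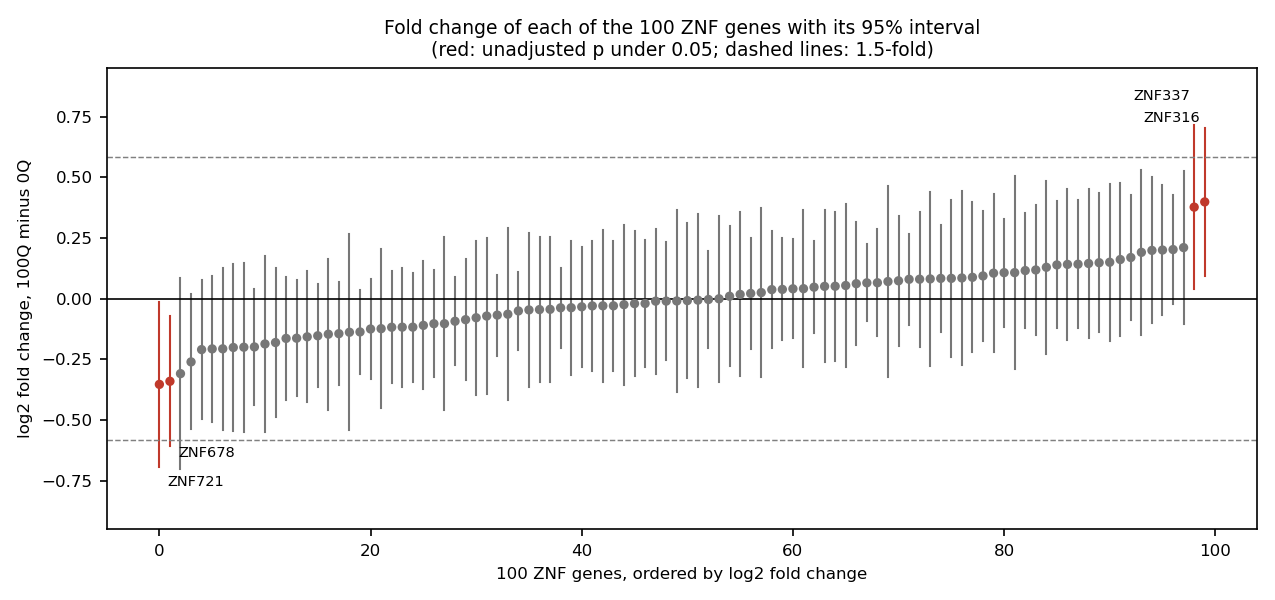
Log2 fold change, 100Q minus 0Q (y axis), of the 100 ZNF genes in order of their fold change (x axis), with 95% intervals from edgeR as bars and 1.5-fold changes as dashed lines. The 4 red genes have an unadjusted p under 0.05, none passes after adjustment, and the points run from -0.35 to 0.40.

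ZNF316 (ENSG00000205903), at chr7:6637318-6658279 on the plus strand, encodes 14 fingers and has 43 CAC and 5 CAT codons. It had 40.4, 48.5 and 35.1 CPM in 100Q (41.3 ± 6.73, SD, n = 3) and 31.7, 31.6 and 29.7 CPM in 0Q (31.0 ± 1.10, SD, n = 3). The 3 values in 100Q all lay above those in 0Q, and 100Q replicate 2 was the highest. The log2 fold change was 0.40 ± 0.14 (SE), with an unadjusted p of 0.0136 and an adjusted p of 0.987 from edgeR.

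ZNF337 (ENSG00000130684), at chr20:25673195-25696853 on the minus strand, encodes 19 fingers and has 36 CAC and 12 CAT codons. It had 27.9, 33.1 and 26.9 CPM in 100Q and 19.3, 23.8 and 24.2 CPM in 0Q. The groups did not overlap. The log2 fold change was 0.38 ± 0.16 (SE), with an unadjusted p of 0.0307 and an adjusted p of 0.987 from edgeR. Its exons share 65.6% of their bases with the antisense gene ZNF337-AS1, and since the sources used here do not give the strand setting of the counting, reads of the 2 genes cannot be told apart where they overlap. The counts of ZNF337 were not whole in 5 of the 6 libraries, so part of its reads were shared with other genes by the counting.

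ZNF678 (ENSG00000181450), at chr1:227563543-227677443 on the plus strand, encodes 14 fingers and has 4 CAC and 30 CAT codons, the lowest CAC share of the set. It had 30.8, 33.4 and 34.6 CPM in 100Q and 40.3, 40.6 and 44.5 CPM in 0Q. The 3 values in 100Q all lay below those in 0Q and both groups were tight. The log2 fold change was -0.34 ± 0.13 (SE), with an unadjusted p of 0.0161 and an adjusted p of 0.987 from edgeR.

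ZNF721 (ENSG00000182903), at chr4:425815-499156 on the minus strand, encodes 23 fingers and has 13 CAC and 49 CAT codons. It had 34.1, 23.6 and 37.2 CPM in 100Q and 44.7, 42.0 and 36.9 CPM in 0Q. The groups overlapped, and 100Q replicate 2 was the lowest. The log2 fold change was -0.35 ± 0.16 (SE), with an unadjusted p of 0.0427 and an adjusted p of 0.987 from edgeR. Its counts were not whole in any of the 6 libraries, so part of its reads were shared with other genes by the counting. Without 100Q replicate 2, the library that stood apart, the edgeR fit gave ZNF721 a log2 fold change of -0.20 and 1 of the 100 genes, ZNF678, an unadjusted p under 0.05 (background 4.65%). Without it ZNF316 was at 0.27 and ZNF337 at 0.29.

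**Figure D3:**
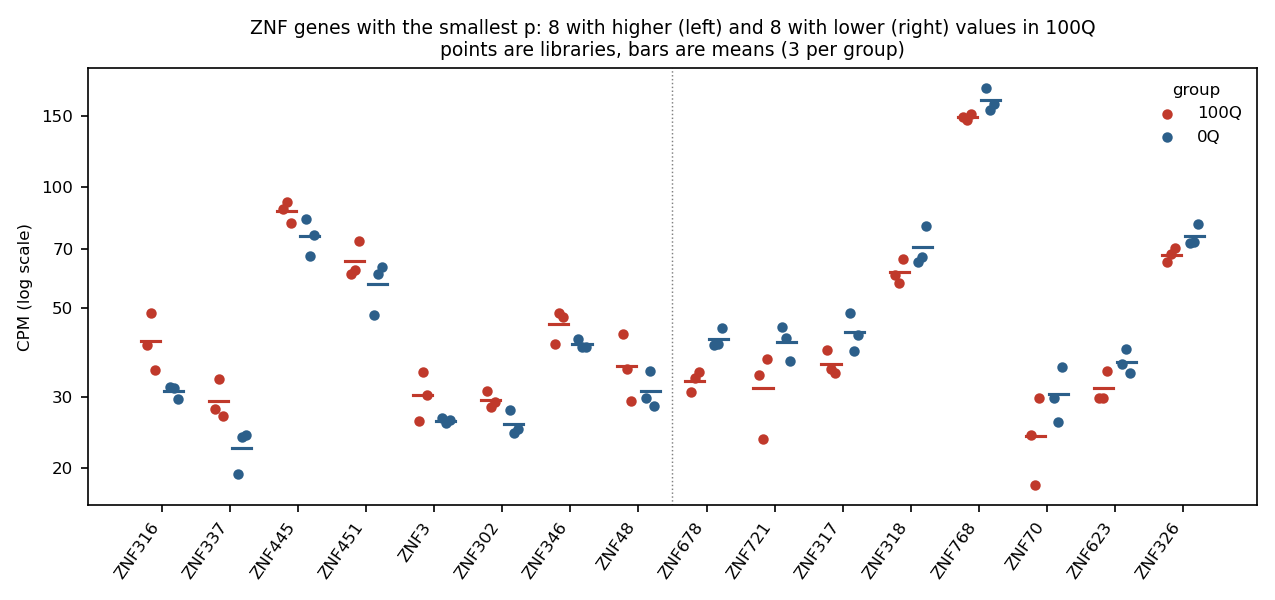
CPM on a log scale (y axis) for 16 ZNF genes, the 8 with the smallest p in each direction. Those higher in 100Q are on the left and those lower on the right. Points are libraries and short bars are means of 3, with 100Q left of 0Q for each gene. Except for ZNF316, ZNF337, ZNF302, ZNF678, ZNF768 and ZNF326, the groups overlap.

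The next genes in order of p differed by less than these. Among those with higher values in 100Q, ZNF3 had 26.2, 34.7 and 30.4 CPM in 100Q and 26.5, 25.8 and 26.3 CPM in 0Q, with overlap and a log2 fold change of 0.21 ± 0.15 (SE). ZNF302 had 31.0, 28.4 and 29.1 CPM in 100Q and 27.8, 24.4 and 24.96 CPM in 0Q, without overlap, at 0.20 ± 0.14 on the log2 scale. The groups overlapped for ZNF48, which had 42.9, 35.2 and 29.3 CPM in 100Q and 29.9, 34.8 and 28.4 CPM in 0Q. Among those with lower values in 100Q, ZNF768, which binds conserved MIR repeats, had 149, 147 and 152 CPM in 100Q and 176, 156 and 161 CPM in 0Q, without overlap and with a log2 fold change of -0.14 ± 0.08 (SE). ZNF318, which in mouse B cells controls the choice between IgM and IgD transcripts, had 60.3, 57.5 and 66.1 CPM in 100Q and 65.2, 67.0 and 80.0 CPM in 0Q, and the groups overlapped. ZNF317 had 39.3, 35.2 and 34.5 CPM in 100Q and 48.4, 39.1 and 42.8 CPM in 0Q, with overlap, at -0.26 ± 0.13 on the log2 scale. ZNF623 and ZNF70 had log2 fold changes of -0.21 ± 0.13 and -0.31 ± 0.18 (SE), also with overlap. Leaving out 1 library put ZNF70 at -0.16 without 100Q replicate 2, at -0.19 without 0Q replicate 3 and at -0.52 without 100Q replicate 3. The adjusted p was 0.987 or more for every ZNF gene in edgeR.

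Of 35 genes in 5 lists of ZNF genes with known roles, 19 were among the 100. Of these, 0 had an unadjusted p under 0.05 in edgeR without the GC correction (background 4.72%). Their log2 fold changes lay between -0.19 and 0.20, and 10 of the 19 were below 0. Among 4 genes that act on RNA, ZNF326, a subunit of the DBIRD complex that couples splicing to transcript elongation, had 65.1, 68.1 and 70.3 CPM in 100Q and 72.6, 73.1 and 81.0 CPM in 0Q. This was the only one of the 19 without overlap between the groups (background 10.6%), at -0.15 ± 0.10 (SE) on the log2 scale. ZNF346, which binds double-stranded RNA, had 40.6, 48.5 and 47.5 CPM in 100Q and 41.7, 39.9 and 40.0 CPM in 0Q, and its groups overlapped. ZNF638, which recruits the HUSH silencing complex to retroviral DNA, had 123, 109 and 110 CPM in 100Q and 107, 104 and 113 CPM in 0Q. ZNF106, an RNA-binding protein, was at -0.14 ± 0.10 (SE) on the log2 scale. Of the 2 genes in the spindle and genome list, ZNF207 was at 0.05 ± 0.09 and ZNF335, a microcephaly gene, at -0.19 ± 0.17 (SE).

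Of the 6 factors that bind promoters, 5 had a log2 fold change below 0 and 0 had an unadjusted p under 0.05 in edgeR. ZNF711, which brings the demethylase PHF8 to promoters, had 93.8, 90.7 and 106 CPM in 100Q and 109.9, 98.2 and 111 CPM in 0Q, with overlap. ZNF281, a GC-box binding factor of pluripotent cells, had 55.5, 61.8 and 62.7 CPM in 100Q and 56.5, 68.2 and 70.8 CPM in 0Q, with overlap. ZNF410 drives transcription of the chromatin remodeler gene CHD4. It had 45.8, 41.9 and 40.6 CPM in 100Q and 45.9, 41.8 and 50.6 CPM in 0Q, and CHD4 had 405, 411 and 374 CPM in 100Q and 401, 375 and 387 CPM in 0Q. The log2 fold changes of the other 3, ZNF76, ZNF148 and ZNF384, were within 0.03 of 0, with standard errors of 0.16, 0.14 and 0.11.

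Of the 6 factors tied to corepressors or chromatin complexes, 2 had a log2 fold change below 0. In edgeR without the GC correction, 0 had an unadjusted p under 0.05. ZNF451, a SUMO ligase, had 60.8, 62.0 and 73.4 CPM in 100Q and 48.02, 60.6 and 63.3 CPM in 0Q, with overlap and a log2 fold change of 0.20 ± 0.13 (SE). With the GC and length trend removed, edgeR put ZNF451 at 0.25, with an unadjusted p of 0.0286 and an adjusted p of 0.893. ZNF609, a partner of the cohesin loader NIPBL, had 53.1, 53.7 and 55.8 CPM in 100Q and 47.5, 40.6 and 59.0 CPM in 0Q. ZNF644, a partner of the histone methyltransferases G9a and GLP, had 76.4, 61.3 and 79.2 CPM in 100Q and 77.9, 80.8 and 78.7 CPM in 0Q, with 100Q replicate 2 the lowest. ZNF592 and ZNF687, which belong to one complex with ZMYND8, were at 0.04 ± 0.10 and 0.02 ± 0.11, and the breast cancer gene ZNF217, whose protein works with CtBP and CoREST, at -0.01 ± 0.17 (SE, log2 fold changes).

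The KRAB box, found by either of 2 sequence patterns, marked 27 of the 100 genes. Of these, 10 had a log2 fold change below 0 and the median was 0.05. Of the 73 that matched neither pattern, 44 were below 0 and the median was -0.02. A KRAB gene missed by both patterns would count among these 73. The difference between these groups of genes was not tested. Summed over the 27 KRAB genes, the level was 1006, 1067 and 1048 CPM in 100Q (1041 ± 31.3, SD, n = 3) and 1034, 985 and 975 CPM in 0Q (998 ± 31.5, SD, n = 3), and the groups overlapped. Among them ZNF445, which keeps imprinted regions methylated, was the only one of 9 listed KRAB repressors of transposons and imprints above the count threshold. It had 88.0, 91.9 and 81.2 CPM in 100Q and 83.2, 67.3 and 75.7 CPM in 0Q, with overlap and a log2 fold change of 0.20 ± 0.10 (SE).

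The corepressor genes that KRAB proteins rely on did not pass either. TRIM28 had 465, 479 and 484 CPM in 100Q (476 ± 10.1, SD, n = 3) and 519, 488 and 489 CPM in 0Q (499 ± 17.5, SD, n = 3). Its groups did not overlap, and the log2 fold change was -0.07 ± 0.07 (SE). SETDB1 had 68.7, 82.9 and 66.8 CPM in 100Q and 68.7, 72.5 and 64.2 CPM in 0Q, with overlap. Of 27 listed genes of this machinery 0 were called by edgeR (background 0.0134%), and 15 had a log2 fold change below 0. For 1 of the 27, the deacetylase gene HDAC2, edgeR gave an unadjusted p under 0.05 (background 4.72%). HDAC2 had 247, 218 and 244 CPM in 100Q and 261, 262 and 273 CPM in 0Q, without overlap (log2 fold change -0.17 ± 0.08, SE). Over all genes the share without overlap was 10.6%.

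The fold changes had no visible order by histidine content. In groups of 33, 34 and 33 genes by histidine share, lowest to highest, the median log2 fold changes were -0.03, 0.05 and -0.0010, and 22 of 33, 15 of 34 and 17 of 33 genes lay below 0. The 2 genes at the top of the histidine range had overlapping groups: ZNF664 was at -0.05 ± 0.08 and ZNF146 at -0.09 ± 0.08 (SE, log2 fold changes). ZNF638, at the bottom of the range, was at 0.08 ± 0.09. Across the 100 genes the Spearman correlation of the log2 fold change with the histidine share was -0.01, and with the number of fingers 0.03. Genes share the 6 libraries and are not independent replicates, so no p is given. The median log2 fold change of the 33 genes with most fingers was -0.0010.

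**Figure D4:**
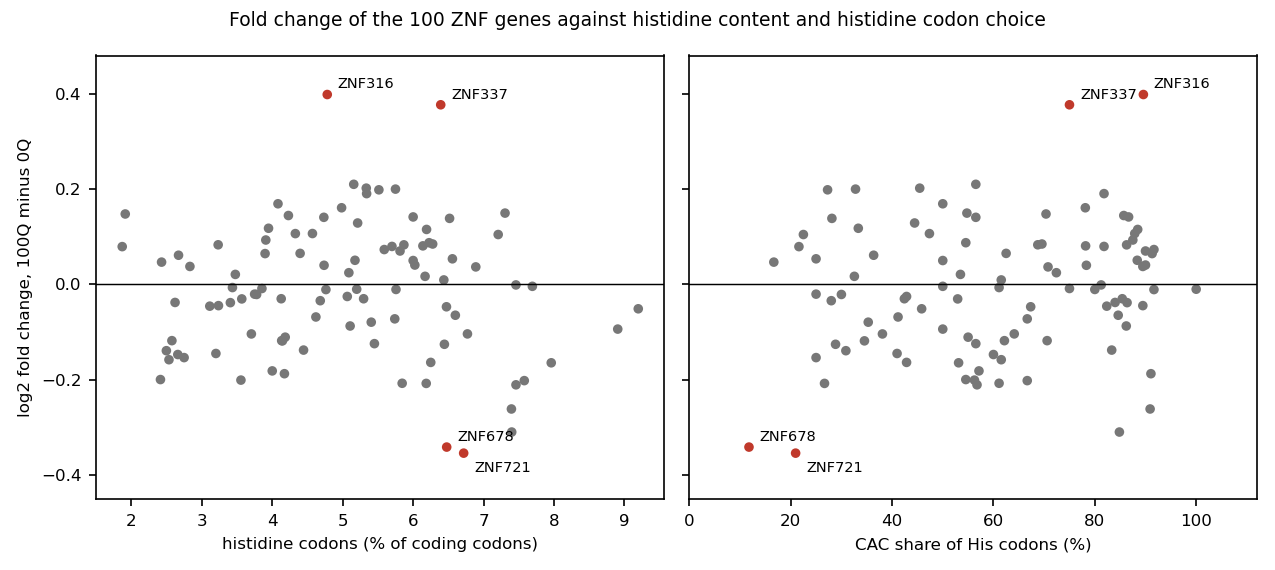
Log2 fold change, 100Q minus 0Q (y axes), of the 100 ZNF genes against the histidine share of codons (left, percent) and the share of histidine codons that are CAC (right, percent). The 4 red genes have an unadjusted p under 0.05, and the Spearman correlations are -0.01 on the left and 0.14 on the right.

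In groups of 33, 34 and 33 genes by the CAC share of histidine codons, lowest to highest, the median log2 fold changes were -0.03, -0.02 and 0.04. ZNF678 and ZNF721, both with lower values in 100Q, were in the lowest group, and ZNF316, with higher values in 100Q, in the highest. Across genes the Spearman correlation of the log2 fold change with the CAC share was 0.14 in the set and 0.11 in all tested protein-coding genes. The correlation with the share of the 4 residues was -0.22 in the set and -0.09 in the tested genes. Transcript GC content gave 0.20 in the set and 0.18 in the tested genes, and it moved with how often these residues used a codon ending in C (0.84 in the set). GC content was 62.9% in the ZNF316 transcript, 47.7% in that of ZNF337, 34.0% in that of ZNF678 and 37.9% in that of ZNF721. Its part in the differences was not tested beyond the fit with the GC trend removed, in which ZNF316 was at 0.32, ZNF337 at 0.37, ZNF678 at -0.30 and ZNF721 at -0.32 on the log2 scale. The 7 genes with an unadjusted p under 0.05 in that edgeR fit (background 5.41%) included ZNF317, ZNF318, ZNF451 and ZNF768. ZNF721 was not among them.

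The 18 genes on chromosome 19, which holds large clusters of KRAB zinc finger genes, had a median log2 fold change of -0.05 with 12 below 0, and the other 82 a median of -0.0038 with 42 below 0. Counts were whole in every library for 55 of the 100 genes and not in at least 1 library for 45, and the median log2 fold change was -0.01 in both. Exonic bases were shared with another gene of at least 100 counts by 28 of the 100. Among the genes with CPM or fold changes given above, the overlap was with a gene on the opposite strand and covered 65.6% of the exonic bases of ZNF337, 18.8% of ZNF3, 15.7% of ZNF410, 10.8% of ZNF146, 10.2% of ZNF48, 7.68% of ZNF503 and 0.584% of ZNF664. In ZNF687 it covered 6.01% with PI4KB and 6.06% with ZNF687-AS1, both on the opposite strand, and in ZNF207 2.95% with a lncRNA on the same strand. The counts of these genes are uncertain by the reads of the partner.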

How the data were processed

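Messenger RNA of HEK293T cells was measured in 6 libraries, 3 of 100Q and 3 of 0Q, grouped by their titles. The values the authors deposited are estimated counts per Ensembl gene, without normalization. The submitters' processing notes name FastQC, STAR and RSEM, with no versions. The series design gives hg38. For the gene annotation and the strand setting, the sources used here give nothing.

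Counts were rounded and tested with edgeR 4.0.16 (R 4.3.3): TMM, a minimum count of 10, quasi-likelihood test, Benjamini-Hochberg adjustment over 14905 genes, threshold 0.05. CPM is relative to the TMM-scaled library total, and log2 fold changes are 100Q minus 0Q. Of 63086 identifiers, 62541 matched GENCODE 44, which gave names, coordinates (hg38) and coding sequences of canonical transcripts. KRAB boxes were found by the pattern F-2-EEW or a looser one added after the first was seen to miss genes. The test was also run on simulated counts, which held no outlying library, and no result here rests on that run.

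Genes, lists and the comparison families were chosen with earlier results of these data known. Genes named were those with the 8 smallest p in each direction, the 5 highest, the extremes of histidine share, the neighbours of the 1000-count threshold and the role lists. ZNF444, CHD4, HDAC2 and genes named for a feature of sequence were chosen after their values were seen. Alternatives were RLE and library-size scaling, other filters, a replicate block, a GC and length correction, DESeq2 1.42.0, limma-voom (limma 3.58.1), thresholds of 500 and 2000 counts and leaving out each library.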

Additional observations from a re-analysis of the deposited data

How the results depend on the processing

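The count of ZNF genes past the adjusted threshold was 0 under every alternative run, and so was that of the other C2H2 families and the KRAB corepressor genes. The number with an unadjusted p under 0.05, 4 in edgeR, was 7 with the GC and length trend removed, 10 of 192 genes at a threshold of 500 summed counts, 0 of 43 at 2000, and 1 to 5 when a library was left out. The low end was without 100Q replicate 2 and the high end without 100Q replicate 3. The share over all genes moved too. It was 4.72% in edgeR, 5.41% with the GC and length trend removed, 4.65% without 100Q replicate 2 and 6.23% without 100Q replicate 3. The median log2 fold change was between -0.039 (without 100Q replicate 3) and 0.0033 when a library was left out. The cause of these shifts was not tested. Depth limits the genes with fewest counts, which had 72 to 243 in a library.

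Replicate numbers did not pair the libraries: deviations of same-numbered libraries correlated at 0.0014, -0.020 and 0.081, and replicates 1 and 2 of 100Q matched another number better. With the replicate block 0 ZNF genes were called, 5 had an unadjusted p under 0.05 (5.19% of all genes), ZNF70 being added at -0.35 with an unadjusted p of 0.0390 in edgeR, and the median log2 fold change was -0.01.

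Among the named genes, the log2 fold changes that changed sign were smaller than their standard errors in edgeR, up to 0.13 ± 0.17 (SE) for ZNF449. With library size only ZNF217 was at 0.010 and ZNF384 at 0.0096. With the GC and length trend removed ZNF148 was at 0.016, ZNF217 at 0.0041, ZNF687 at -0.020, ZNF703 at -0.013 and ZNF76 at -0.0028. In limma-voom ZNF384 was at 0.014. With a library left out, ZNF148 was between -0.10 and 0.086, ZNF207 between -0.0086 and 0.12, ZNF217 between -0.10 and 0.17, ZNF384 between -0.10 and 0.050, ZNF449 between -0.0066 and 0.27, ZNF503 between -0.074 and 0.00070, ZNF592 between -7.1e-05 and 0.10, ZNF687 between -0.068 and 0.087, ZNF76 between -0.072 and 0.165, and ZNF791 between -0.234 and 0.029. The other 30 of 40 named genes kept their direction with any library left out.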

Other observations

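Other C2H2 families at the same threshold of 1000 summed counts likewise held no gene past the adjusted threshold of edgeR. Of 20 ZBTB genes, whose BTB domain pairs the proteins, 12 had a log2 fold change below 0, the median was -0.02 and 0 had an unadjusted p under 0.05. Of 11 KLF and SP genes, which bind GC-rich promoter boxes through a short array of fingers, 1, SP3, was below 0, the median was 0.06 and 0 had an unadjusted p under 0.05. Of 7 ZSCAN and ZKSCAN genes 5 were below 0, and ZSCAN30, at 0.30 ± 0.14 (SE), had an unadjusted p of 0.0474 and an adjusted p of 0.987 in edgeR. All 3 ZFP genes, ZFP62, ZFP64 and ZFP91, were below 0, with a median of -0.14, and 0 had an unadjusted p under 0.05. Of the 281 tested numbered ZNF genes under 1000 summed counts, 5 were higher and 6 lower at an unadjusted p under 0.05, against 4.72% of all genes, and their median log2 fold change was 0.03 with a median SE of 0.32.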
